A study of Homo sapiens with 2 samples.

Results

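The human VPS (vacuolar protein sorting) and CHMP (charged multivesicular body protein) genes were examined in NUGC4, a cell line from a human gastric cancer, after RNA interference against ANO5 (anoctamin 5). Members were selected by gene symbol, as every gene whose symbol begins with VPS or CHMP followed by a digit, with no filter on level. The array reads each gene through a transcript cluster, a set of probes, and for a gene with several clusters the one highest on average over the arrays was to be kept. All 45 genes found had 1 cluster, so this step changed nothing. They are 45 of the 14526 genes with a name on the arrays. The family was proposed with the differences between these arrays already known, so its values are a description and carry no test.

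The study compared 1 culture given a negative control siRNA with 1 culture given an siRNA against ANO5, both Stealth duplexes at 20 nmol/l, transfected 24 h after seeding. Each group is 1 array of total RNA, and no spread between cultures can be had. A single duplex was used against ANO5, and the labels give no time from transfection to harvest. Values are log2 signal as the authors deposited them, and every difference is the ANO5 siRNA array minus the control array on that scale. Each gene is read by its own probes, so its level was used only to place it on the array (the filter on low values and the check of markers), not to rank members against each other.

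ANO5 itself had a log2 signal of 6.83 in the control and 3.67 after its siRNA, a difference of -3.16. The epithelial markers EPCAM, CDH1, KRT8, KRT18 and KRT19 lay between 14.60 and 17.06 in the control. Blood and stromal markers ranged in the control from 3.68 for PTPRC, which defines white blood cells, to 10.88 for LYZ, which stomach epithelium also makes. The differences of the epithelial markers ran from -0.19 (KRT18) to 1.02 (KRT19), those of the blood markers from -1.08 (LYZ) to 0.53 (CD3E) and those of the stromal markers from -0.11 (COL1A2) to 0.52 (VWF). Their part in the results was not tested. The arrays had medians of 7.69 and 7.68 over 17345 clusters.

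As background, cargo that enters a cell passes through early endosomes, from which it is returned to the surface or the Golgi, or is carried on to the lysosome. Tethering complexes such as HOPS and CORVET join endosomes to each other and to lysosomes, retromer and retriever recover cargo, and GARP and EARP receive vesicles at the Golgi and at recycling endosomes. ESCRT complexes sort ubiquitinated receptors into vesicles that bud into the endosome. The filaments of ESCRT-III also cut the bridge between dividing cells and reseal the nuclear envelope. VPS13 proteins are long channels that carry lipids between membranes.

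Most of the family was higher in the culture given ANO5 siRNA. Of the 45 genes, 37 had a difference above 0 and 8 below. At 1.5-fold or more, a log2 difference of 0.585, 23 were higher, or 51.1%, beside 18.6% of all named genes. CHMP1A and CHMP1B were lower by that size (joined by VPS52 under 3 of 4 other scalings), which is 4.44% of the members beside 16.6% of all named genes. At 2-fold or more 13 members were higher, 28.9% beside 8.33%, and 0 were lower beside 8.35%. The median difference of the 45 was 0.72, and that of all named genes 0.03.

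No member differed by 3-fold, though only 20 of the 45 lay within 1.5-fold, beside 9412 of the 14526 named genes. The differences of the members ran from -0.74 to 1.35. All named genes ran from -5.75 to 4.90, but a range widens with the number of genes, so the ranges cannot be compared. VPS4B at 0.58 lay just under the 1.5-fold line (0.59 after median centring), followed by VPS54 and VPS28 at 0.56 and VPS13B at 0.55. VPS52 at -0.57 lay just short of it on the lower side. Of the 45 members, 43 had a mean level at or above 6.05, the 33rd percentile of the named genes. Among the 9735 named genes above that level, 23.2% were higher and 20.1% lower by 1.5-fold, and 11.2% and 11.3% by 2-fold, while 22 of the 43 members were higher and 2 lower by 1.5-fold.

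**Figure D1:**
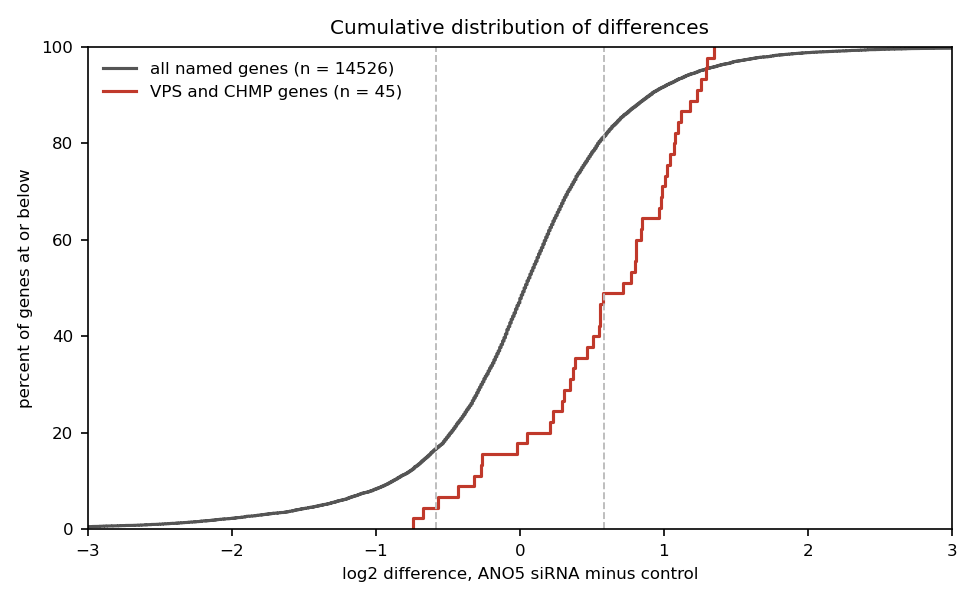
Cumulative percent of genes (vertical axis) at or below each log2 difference, ANO5 siRNA minus control (horizontal axis, shown from -3 to 3), for all 14526 named genes in grey and the 45 VPS and CHMP genes in red, with dashed lines at 1.5-fold. The red curve lies to the right of the grey one over most of its length, with medians of 0.72 and 0.03, and ends at 1.35, below the highest differences of the named genes.

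Of the 7 HOPS and CORVET tether subunits with a VPS symbol, all but 1 were higher by similar amounts. VPS11, VPS16, VPS18 and VPS33A form the core that both complexes share, VPS39 and VPS41 belong to HOPS, which acts at late endosomes and lysosomes, and VPS8 belongs to CORVET, which acts at early endosomes. These 7 all had a difference above 0, 6 of them past 2-fold, and their median was 1.23. The share past 2-fold was 85.7%, beside 8.33% of all named genes higher by that size. VPS18 went from 9.26 in the control to 10.61 after ANO5 siRNA, 2.55-fold higher. VPS11 went from 10.13 to 11.23, a difference of 1.10. VPS33A, which helps SNARE proteins assemble for membrane fusion, went from 11.84 to 13.02, a difference of 1.18.

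Subunits particular to each tether were read too. VPS39 read 8.31 and 9.61 (2.46-fold higher) and VPS41 read 12.68 and 13.91 (2.35-fold higher). The CORVET subunit VPS8 read 8.62 and 9.91, 2.45-fold higher, but TGFBRAP1, its CORVET partner without a VPS symbol, read 9.90 and 10.19, a difference of 0.29. Among the members VPS16 was the exception, with 4.45 in the control and 4.82 after ANO5 siRNA, a difference of 0.37. On the control array 15.7% of clusters had a value no higher than this, and whether background limits its difference was not tested. VPS33B, the relative of VPS33A that works in another complex, CHEVI, read 8.05 and 8.43, a difference of 0.38, so that the paralogs VPS33A and VPS33B differed by 1.18 and 0.38.

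**Figure D2:**
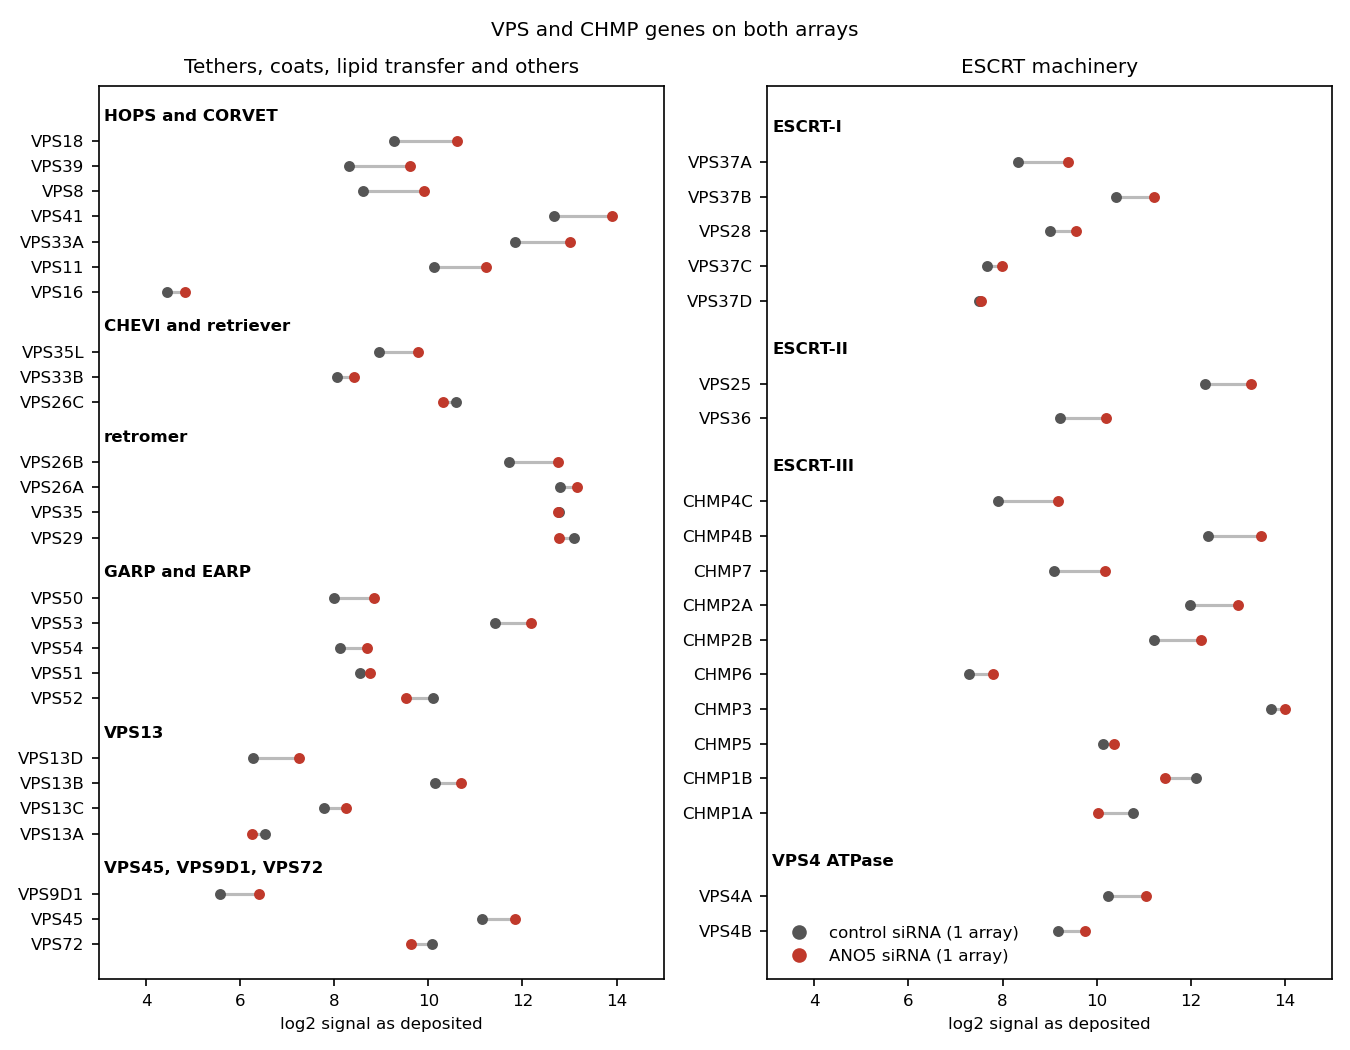
Log2 signal as deposited (horizontal axis) of each of the 45 genes in the control array (grey) and the ANO5 siRNA array (red), grouped by complex, with tethers, coats and others on the left and the ESCRT machinery on the right; each point is 1 array. The red point lies to the right in 6 of 7 HOPS and CORVET genes by more than 1 unit, whereas CHMP1A, CHMP1B and VPS52 have the red point on the left.

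Several members carry in their promoters the E-box CACGTG. These letters are also the core of the CLEAR element, which the factor TFEB binds in genes of lysosomes. The motifs were chosen with earlier results of these data known, and others that were looked at are not reported. No binding by TFEB or another factor was measured. RefSeq promoter windows (build GRCh38.p14, from 250 bases before to 50 after a transcript's start) were on hand for 31 of the 45 genes. CACGTG, which reads the same on both strands, was in a window of 7 of these 31, or 22.6%, beside 11.5% of the 11791 named genes with such windows. The longer TCACGTGA, which contains CACGTG, was in VPS11 and VPS26C, 6.45% beside 1.91%. The windows with CACGTG are shown because they include the tether subunits VPS8, VPS11 and VPS16, with the E-box in capitals and each sequence 5′ to 3′ on the gene's strand. The entries were VPS11 at chr11:119067732-119067817 (+), VPS16 at chr20:2840649-2840714 (+), VPS37B at chr12:122896128-122896193 (-), VPS8 at chr3:184812171-184812200 (+), VPS50 at chr7:93232351-93232380 (+), VPS36 at chr13:52450302-52450331 (-) and VPS26C at chr21:37267398-37267427 (-).
VPS11: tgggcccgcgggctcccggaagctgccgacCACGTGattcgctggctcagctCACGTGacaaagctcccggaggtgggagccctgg
VPS16: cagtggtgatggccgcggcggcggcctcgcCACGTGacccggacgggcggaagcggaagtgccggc
VPS37B: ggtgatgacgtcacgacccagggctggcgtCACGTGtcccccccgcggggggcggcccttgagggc
VPS8: agtgggtgcggtCACGTGggccggcggtcc
VPS50: ggtcggctcctcCACGTGaccacccactat
VPS36: gccggtcggtagCACGTGgcgtggggcgct
VPS26C: ccgctgcgaggtCACGTGagccactgccgg

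VPS11 holds 2 copies, the first 56 bases before its first start. The E-boxes of VPS16 and VPS37B also lay before the gene's first start. Those of VPS8, VPS36 and VPS26C began 17, 315 and 693 bases after it, and that of VPS50 spanned it. The E-boxes of VPS36 and VPS26C lay before a later start of the same gene. The differences of these genes were 1.29 (VPS8), 1.10 (VPS11), 0.97 (VPS36), 0.85 (VPS50), 0.81 (VPS37B), 0.37 (VPS16) and -0.26 (VPS26C), so that 5 of the 7 were past 1.5-fold. Of the 24 members whose windows lacked CACGTG, 12 were higher and 2 lower by that size, and 18.6% of all named genes were higher. Whether the E-box goes with the difference was not tested, and 7 genes are too few to compare these shares. VPS39 and VPS41, with differences of 1.30 and 1.23, had windows without the motif. TTTGAA, the core of the CHR element of cell cycle genes, was in windows of 4 members (CHMP2B, VPS8, VPS29 and VPS41), or 12.9% beside 14.8% of the named genes. Of the E2F-type letters TTTGGCGC and TTTCCCGC, the first was in CHMP1B alone (3.23% beside 1.14%) and the second in 0 of the 31 (beside 2.93%). All motifs were searched on both strands, and a match is a description of these letters, not evidence of binding. Windows of CHMP3, CHMP4C, CHMP6, CHMP7, VPS13B, VPS18, VPS26A, VPS28, VPS33A, VPS33B, VPS37A, VPS37C, VPS53 and VPS72 were not analysed here.

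Retromer did not share the pattern of the tethers. VPS35, the scaffold of the coat, read 12.77 and 12.75, a difference of -0.02. VPS29, which binds the other end of VPS35 and regulators, read 13.10 and 12.78, a difference of -0.32. Of the alternative cargo-side subunits, VPS26B went from 11.72 to 12.76 (2.06-fold higher) and VPS26A from 12.80 to 13.15 (a difference of 0.35). The median of the 4 was 0.17, and 1 of the 4 was higher by 1.5-fold. That is 25%, not far from the 18.6% of all named genes. In retriever, which shares VPS29 with retromer, VPS35L went from 8.96 to 9.77 (1.75-fold higher) and VPS26C from 10.58 to 10.32 (a difference of -0.26).

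The subunits of GARP and EARP, which share VPS51, VPS52 and VPS53, had differences of both signs. VPS53 went from 11.42 to 12.19, 1.71-fold higher. VPS50, found in EARP at recycling endosomes, went from 7.99 to 8.84, 1.80-fold higher, and its counterpart in GARP, VPS54, from 8.13 to 8.69, a difference of 0.56. VPS51 differed by 0.21. VPS52 went the other way, from 10.09 to 9.52, a difference of -0.57. The median of the 5 was 0.56, and 2 were higher by 1.5-fold, or 40% beside 18.6% of all named genes.

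Among the VPS13 lipid channels only VPS13D, which acts at mitochondria and peroxisomes, was past 1.5-fold. It read 6.27 in the control and 7.26 after ANO5 siRNA, a difference of 0.99. VPS13B, a protein of the Golgi, differed by 0.55 and VPS13C, of late endosomes and lysosomes, by 0.47. VPS13A, known as chorein, read 6.52 and 6.25, a difference of -0.27. The 4 had a median of 0.51, and 25% of them were higher by 1.5-fold, beside 18.6% of all named genes.

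No gene of ESCRT-I or ESCRT-II with a VPS symbol had a difference below 0, but the sizes were unequal. ESCRT-I binds ubiquitinated cargo, and its 5 members had differences from 0.05 to 1.07, with a median of 0.56. The 4 VPS37 paralogs, of which each ESCRT-I complex holds one, were graded. VPS37A went from 8.32 to 9.39 (2.10-fold higher) and VPS37B from 10.40 to 11.21 (1.75-fold higher). VPS37C differed by 0.31 and VPS37D by 0.05. VPS28, the subunit that contacts ESCRT-II, went from 9 to 9.56, a difference of 0.56.

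Both ESCRT-II members were higher by nearly the same amount. VPS25, which engages CHMP6, went from 12.30 to 13.28 (a difference of 0.98). VPS36, which binds ubiquitin and lipid, went from 9.23 to 10.20 (a difference of 0.97).

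The ESCRT-III genes had differences of both signs. Of its 10 measured genes, 5 were higher by 2-fold or more, 3 were within 1.5-fold, and 2 were lower by more than 1.5-fold. The higher share was 50%, beside 8.33% of all named genes at 2-fold. The lower share was 20%, near the 16.6% of all named genes at 1.5-fold. CHMP4 proteins build the main filament, and CHMP4B went from 12.37 to 13.49 (2.17-fold higher) and CHMP4C, known for delaying the final cut between daughter cells, from 7.91 to 9.17 (2.39-fold higher). CHMP2 proteins join the filament late and recruit VPS4. CHMP2A went from 11.99 to 13.01 and CHMP2B from 11.21 to 12.22, differences of 1.02 and 1.01. CHMP7, which brings ESCRT-III to the nuclear envelope, went from 9.10 to 10.18 (2.11-fold higher).

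CHMP6, which starts the filament, differed by 0.51, CHMP3 by 0.29 and CHMP5 by 0.23. The CHMP1 paralogs, which bind the microtubule-severing protein spastin and VPS4, were lower together. CHMP1A went from 10.77 to 10.03, 1.67-fold lower, and CHMP1B from 12.12 to 11.45, 1.59-fold lower. CHMP4A was not analysed here. VPS4A and VPS4B, the ATPases that take ESCRT-III filaments apart, went from 10.25 to 11.05 and from 9.18 to 9.76, differences of 0.80 and 0.58.

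**Figure D3:**
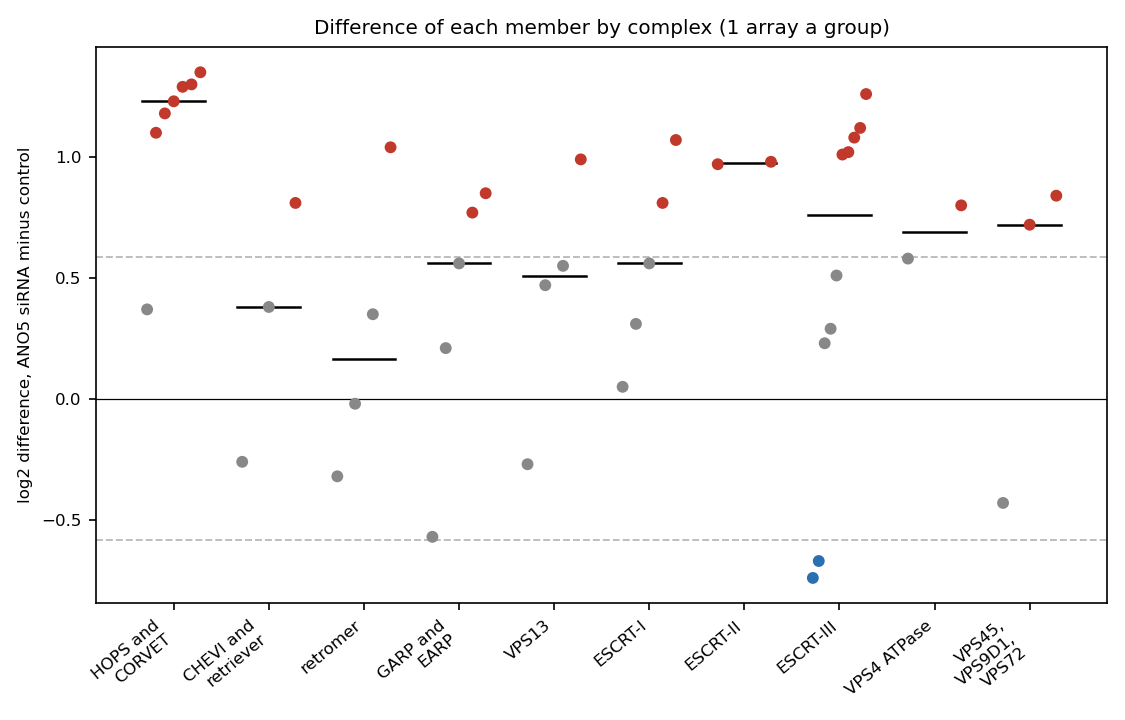
Log2 difference, ANO5 siRNA minus control (vertical axis), of each gene by complex; each point is 1 gene, the black bar is the median of the group, dashed lines mark 1.5-fold, and colour marks genes past it (red higher, blue lower). HOPS and CORVET have 6 points between 1.10 and 1.35, retromer has a single point past the line, and the blue points of ESCRT-III are CHMP1A at -0.74 and CHMP1B at -0.67.

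The remaining members stand outside these complexes. VPS45, a regulator of SNARE proteins on endosomes, went from 11.13 to 11.85, 1.65-fold higher, and lay just inside the 1.5-fold line after loess. VPS9D1, named for the domain by which proteins activate RAB5-type GTPases, went from 5.57 to 6.41, a difference of 0.84, at a mean level below the 33rd percentile. VPS72, which carries a VPS name but is a subunit of chromatin remodellers that deposit the histone variant H2A.Z, went from 10.07 to 9.64, a difference of -0.43. CHMP1A and VPS9D1 lie near each other on chromosome 16 with 3 protein-coding genes between them in the RefSeq annotation, and had differences of opposite sign.

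Some paralogs had nearly the same difference and others did not. The gap between the differences was 0.01 for CHMP2A minus CHMP2B, -0.07 for CHMP1A minus CHMP1B and -0.14 for CHMP4B minus CHMP4C. It was 0.80 for VPS33A minus VPS33B and -0.69 for VPS26A minus VPS26B, while VPS37A at 1.07 and VPS37D at 0.05, and VPS13D at 0.99 and VPS13A at -0.27, lay further apart. Near-identical probes were not examined, so the paralogs need not be independent measurements.

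Partner genes that lack a VPS or CHMP symbol were listed by complex. Over 106 genes measured of 121 listed, 47 were higher and 17 lower by 1.5-fold, or 44.3% and 16%, with a median of 0.48. Among all named genes these shares were 18.6% and 16.6%. Some partners had larger differences than any member in either direction, from STX10 at -3.59 to STX8 at 1.67. The lists were drawn up from known function, with the earlier results in view. Copies such as CCZ1 and CCZ1B, or WASHC2A and WASHC2C, were counted as separate genes. Their probes were not examined for shared signal, so they need not be independent measurements.

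Partners of the tethers and of their lipid signal mostly had differences above 0. Of 19 genes that work with HOPS and CORVET, 13 were above 0, with a median of 0.49. By 1.5-fold 9 were higher and 1 lower, or 47.4% and 5.26%, beside 18.6% and 16.6% of all named genes. STX8, a SNARE of late endosomes, went from 9.65 to 11.32 (3.18-fold higher), RILP, which links RAB7 to motors and HOPS, from 7.98 to 9.33, and the SNARE VAMP7 from 10.10 to 11.27. MON1B, part of the activator of RAB7, went from 8.22 to 6.76, 2.75-fold lower. Of 11 genes of the phosphoinositide kinase complex and its lipid products, 9 were higher and 0 lower, or 81.8% and 0%. Their median was 0.82. NRBF2 differed by 1.56, the phosphatase MTM1 by 1.24 and ATG14, the autophagy subunit, by 0.86.

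Partners of the recycling coats went both ways. Of 18 genes around retromer, 11 were above 0, with a median of 0.445. By 1.5-fold 5 were higher and 3 lower, or 27.8% and 16.7%, beside 18.6% and 16.6% of all named genes. WASHC4, of the actin-nucleating WASH complex, went from 10.05 to 11.12 and the sorting receptor SORL1 from 10.37 to 11.25. WASHC2A and WASHC2C, near-identical copies, each differed by 0.75. M6PR, a receptor that retromer recovers, went from 13.96 to 12.07, 3.71-fold lower, and SNX3, a cargo adaptor, from 11.29 to 10.35. TBC1D5, which binds VPS29, differed by -0.67.

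Of 13 genes around retriever, 3 were higher and 2 lower, or 23.1% and 15.4%, near the shares among all named genes. Their median was 0.28. COMMD8, COMMD10 and COMMD7, subunits of the complex that assists retriever, differed by 1.17, 0.92 and 0.68. SNX17, the adaptor that brings cargo to retriever, went from 10.36 to 8.19, 4.50-fold lower, and COMMD4 differed by -0.65.

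Of 10 genes around GARP and EARP, 8 were higher and 1 lower, or 80% and 10%, beside 18.6% and 16.6% of all named genes. ARL1, a GTPase of the Golgi, went from 9.87 to 11.45 (2.99-fold higher), and TRAPPC11 and STX12 differed by 1.26 and 0.97. STX10, a SNARE that receives vesicles at the Golgi, went from 9.79 to 6.20, a difference of -3.59 and the lowest of any partner. A further 11 genes were listed around lipid transfer like that of VPS13, not all of them lipid channels. Of these, 6 were higher and 3 lower, or 54.5% and 27.3%. BLTP1, BLTP3B and ATG9A differed by 1.18, 0.98 and 0.92, and BLTP3A, TMEM41B and VAPB by -1.25, -0.93 and -0.66.

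Partners in the ESCRT pathway are given from its start to its end. Of 7 ESCRT-0 and related cargo adaptors, 4 were higher and 3 lower, or 57.1% and 42.9%, beside 18.6% and 16.6% of all named genes. Of the core ESCRT-0 genes, STAM2 and HGS differed by -0.75 and -0.60 and STAM by 0.68. The related adaptor TOM1L1 went from 11.22 to 8.10, 8.69-fold lower. TOM1, TOM1L2 and TOLLIP differed by 1.25, 1.08 and 0.99. In ESCRT-I, UBAP1 went from 8.97 to 9.79 and TSG101, which binds cargo, from 10.65 to 11.28, 2 of 3 measured genes past 1.5-fold. MVB12B, also measured, differed by -0.14. SNF8, the remaining ESCRT-II subunit, went from 12.98 to 13.44, a difference of 0.46.

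Of 13 regulators of ESCRT-III, 1 was higher and 4 lower, or 7.69% and 30.8%, beside 18.6% and 16.6% of all named genes. Their median was -0.03. CEP55, which brings ESCRT proteins to the bridge between dividing cells, went from 10.88 to 8.60, 4.86-fold lower. STAMBPL1, a deubiquitinase, went from 10.42 to 8.16 and CC2D1A, which binds CHMP4 proteins, from 9 to 7.90. ZFYVE19, which with CHMP4C delays the final cut, went from 9.09 to 9.87. IST1, which was picked out after its value was seen because it copolymerises with CHMP1B, went from 12.19 to 11.37, 1.77-fold lower. IST1, CHMP1A and CHMP1B were lower by 0.67 to 0.82, and CHMP2A, CHMP2B, CHMP4B, CHMP4C and CHMP7 were higher by 1.01 to 1.26. CHMP3, CHMP5 and CHMP6 lay between them, at 0.23 to 0.51. These groups were formed from the values themselves, and whether the genes change together was not tested.

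**Figure D4:**
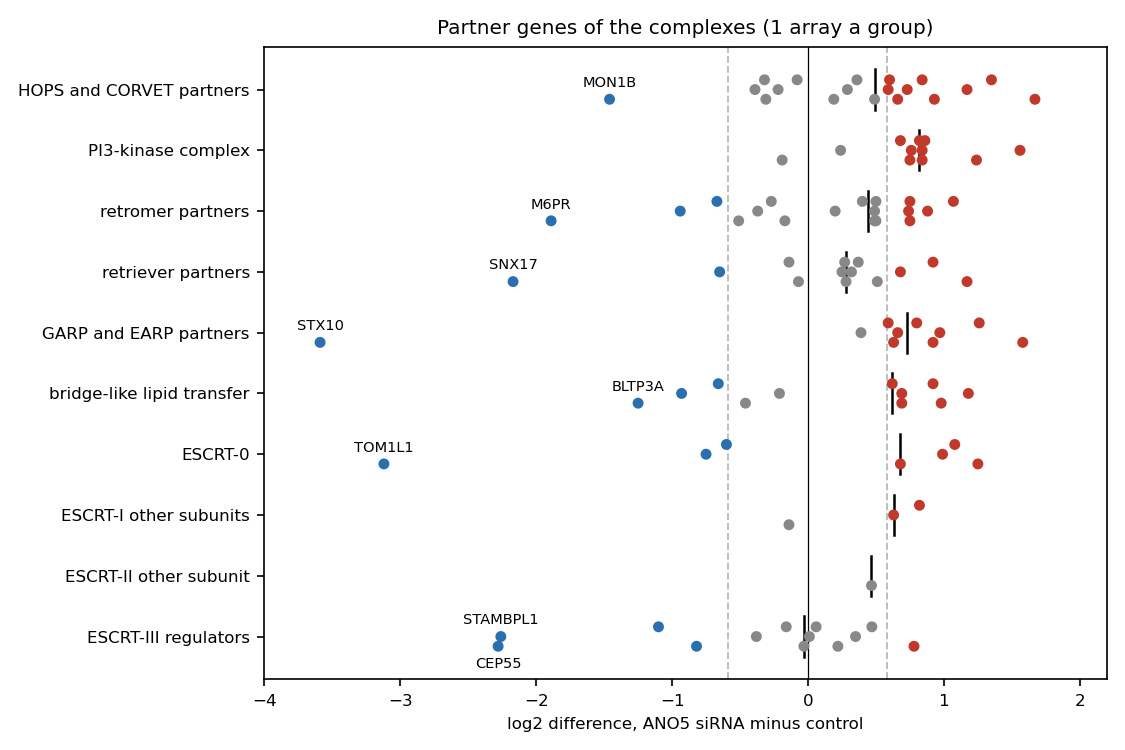
Log2 difference, ANO5 siRNA minus control (horizontal axis), of the partner genes in 10 lists; each point is 1 gene, black bars are list medians, dashed lines mark 1.5-fold, and genes at -1.2 or lower are named. Most points of the kinase list and the GARP and EARP list lie right of the 1.5-fold line, while STX10 (-3.59), TOM1L1 (-3.12), CEP55 (-2.28), STAMBPL1 (-2.26) and SNX17 (-2.17) lie far to the left.

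Other families of membrane traffic are given for scale, chosen by symbol alone and without a test of the difference. Of 58 sorting nexin and clathrin adaptor genes, 39.7% were higher and 6.90% lower by 1.5-fold, with a median of 0.50. Of 39 genes of the SEC, COPI, COPII and TMED families 30.8% were higher and 12.8% lower, and of 65 RAB genes 35.4% and 12.3%. In the same terms the VPS and CHMP genes had 51.1% and 4.44%, and all named genes 18.6% and 16.6%. Across the 45 members the difference showed little relation to the mean level (Spearman rho 0.07) or to the length of the gene (rho 0.19), values across genes that share the same arrays.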

How the data were processed

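RNA of 2 cultures of NUGC4 cells was measured, with 1 array for each group, so the number of arrays limits the precision and no p-value is given. The authors deposited 1 value per cluster and array, read here as log2 signal from its range of 2.13 to 18.15. Agilent Feature Extraction (12.0.3.1) is the tool listed, per the submitters' processing notes, whereas the identifiers of the clusters look like those of a different array maker. How probes were summarised, corrected and normalized, the log base and the build are not given in the sources used, and no detection call was applied.

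Of 17345 clusters, 14544 had 1 gene symbol in the platform annotation, 0 several and 2801 none. All 45 members matched a RefSeq record by Entrez identifier. Values were used as deposited. Genes were counted at a fixed size of 1.5-fold or 2-fold. The members, lists and motifs were chosen with earlier results of these data known. Every member was named. From each partner list up to 3 genes past 1.5-fold each way were named (4 where WASHC2A and WASHC2C tied). CCZ1, CCZ1B, IST1, MVB12B, SNF8, STAM and TGFBRAP1 were named outside this rule. Further promoter motifs were looked at in exploration and are not reported. Counts were checked on simulated data with planted differences. Alternatives were 4 scalings, the median over clusters, 2 filters on level, a pseudocount of 16, other thresholds, the mean, and the members without VPS72. The loess span was 0.4. Software was Python 3.11.15 with statsmodels 0.14.6, pandas 2.3.3 and numpy 2.4.6.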

Additional observations from a re-analysis of the deposited data

How the results depend on the processing

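Of 86 values under alternatives, 19 could not move, since every member has 1 cluster and some filters dropped no gene of a complex. Of the other 67, 56 stayed within 0.1 on the log2 scale, or within 1.5 times for counts, and 0 reversed. Median and 75th percentile centring shifted every member by 0.01 and -0.02, so their medians were bound to stay within 0.1. Reversal could be recorded only for medians of at least 0.585 as reported, not for counts or smaller medians. Loess on the mean level moved the median of the 45 members from 0.72 to 0.58, that of HOPS and CORVET from 1.23 to 1.12, that of retromer from 0.17 to 0.047 and that of ESCRT-II from 0.98 to 0.87. It left 48.9% of members higher and 6.67% lower by 1.5-fold, beside 16.5% and 18% of all named genes. The mean of the members was 0.57. When genes under the 50th percentile of level were left out, 38 members stayed and the medians of ESCRT-I and ESCRT-III were 0.81 and 1.01. By construction the thresholds moved the counts, to 13 higher and 0 lower at 2-fold and to 0 and 0 at 3-fold. Only VPS4B, VPS45 and VPS52 crossed the 1.5-fold line under any scaling. VPS52 was lower by 1.5-fold under the 75th percentile, quantile and loess scalings, which makes 3 lower members. No paired analysis was possible because each group has 1 array. Without replicates no difference can be set against the spread between cultures, and signal over background is unknown, which bears most on VPS16.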
